A study of Mus musculus with 6 samples.

Results

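Corepressor complexes are the machinery through which many DNA-binding factors silence genes, and FOG1, the product of Zfpm1, is a zinc finger cofactor that brings some of them to GATA factors. The genes described here are 34 subunits of such complexes, chosen by gene symbol, with earlier results of these data known: 13 of the NuRD complex, the 2 CtBP genes, 2 of CoREST, 3 of SIN3, 3 of NCoR, and 11 polycomb genes, of which 4 belong to polycomb repressive complex 2 (PRC2) and 7 to polycomb repressive complex 1 (PRC1). A probe set annotated with exactly 1 symbol was found for 33 of them, out of 19937 genes with such a probe set. Expression of Ncor1 was not analysed here, and the gene enters only the promoter windows described below. Where a gene had more than 1 such probe set, the one with the highest mean over the 6 arrays stood for it.

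The RNA came from the mouse B-cell line 230-238, a single cell line, infected with a plasmid encoding GFP alone (3 arrays) or GFP and FOG1 (3 arrays), so both groups carried GFP and the groups differed by the FOG1 insert. Cells were cultured for 3 days, sorted as GFP-positive and cultured for another 4 days before total RNA was taken. The sources used here do not give the promoter of the plasmid or the make-up of each infected population, nor whether each replicate was infected on its own, and p-values therefore cover only the scatter among these 6 samples. Values are log2 signals of an Affymetrix whole-transcript gene array, 1 array for each sample, and the comparison shows which corepressor transcripts go with added FOG1.

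NuRD joins a remodelling ATPase (Chd3 or Chd4) to the histone deacetylases Hdac1 and Hdac2, the histone chaperones Rbbp4 and Rbbp7, and the Mta, Mbd and Gatad2 scaffold proteins. FOG1 is known to bind NuRD through a short stretch at its N-terminus and CtBP through a short internal peptide, and both partners have been linked to repression with GATA factors in blood cells. Several subunits serve more than one complex: Hdac1 and Hdac2 also work in SIN3 and CoREST, and Rbbp4 and Rbbp7 also in SIN3 and PRC2. PRC2 methylates histone H3 and PRC1 ubiquitinates histone H2A, and the pair maintains silencing of developmental genes, also in B-cell precursors.

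Zfpm1 itself checks the labels. Its log2 signal read 9.41, 9.49 and 9.43 with GFP alone and 10.21, 10.16 and 10.17 with FOG1 (log2 change 0.74, SE 0.045; limma with Benjamini-Hochberg over all probe sets, adjusted p = 0.0038). Any pair of arrays correlated at 0.993 to 0.996 over all probe sets. On the first principal component (36.8% of the variance) FOG1 replicate 1 lay at 1.15, between the GFP-alone arrays (-16.1 to -11.4) and the other FOG1 arrays (17.0 and 24.3). All but 1 of 11 measured early B-cell markers reached the median signal of the arrays, and the other was Rag2. None of 8 myeloid markers did, and 1 of 5 T-cell and 1 of 5 erythroid and megakaryocyte markers did. Of 6 fibroblast markers 4 did (Col1a1, Col1a2, Col3a1 and Pdgfrb), and the list's mean log2 signal ran from 7.48 to 7.66 on the GFP-alone arrays and from 7.21 to 7.81 on the FOG1 arrays, lowest on FOG1 replicate 3 and highest on FOG1 replicate 1. The part of these genes in the results was not tested.

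None of the 33 measured corepressor genes passed an adjusted p of 0.05 between FOG1 and GFP-alone cells (limma, adjusted over all 34760 probe sets), where 78 probe sets, or 0.224%, did, and 0.236% of the 8899 genes at least as bright as Cbx8, the dimmest of the 33. These 8899 are called genes as bright below. They share a lower limit of signal and were not matched to the 33 in level. Without any single array those 78 became 17 to 38, and the count of corepressor genes was 0 under every alternative fitted. At an unadjusted p under 0.05 there were 3 of 33 (9.09%), Rnf2, Hdac1 and Hdac2, all higher with FOG1, against 12.5% of all probe sets (5.55% when only those higher with FOG1 are counted) and 13.9% of the genes as bright. After quantile normalization there were again 3 (9.09%, against 12.0% and 13.6%), with Ezh1, lower with FOG1 (-0.11), in place of Hdac2. The share depended on the scaling and the variance model: after centring each array on its median it was 9 of 33 (27.3%), against 13.4% of all probe sets and 19.0% of the genes as bright, and with a variance trend 8 of 33 (24.2%), against 13.1% and 18.1%. The count was 6 without dim probe sets (18.2%, against 17.1% of all probe sets and 16.8% of the genes as bright). It was 5 (15.2%) with 1-symbol probe sets only, against 14.1% and 16.7%, or with array weights, against 14.2% and 15.9%. Without FOG1 replicate 1 the 3 became 6 (18.2%, against 15.5% of all probe sets and 18.2% of the genes as bright). Without any 1 GFP-alone array the count was 2 (6.06%, against 10.1% to 11.2% and 9.46% to 10.3%). These were Rnf2 and Cbx2 without replicate 1, Rnf2 and Hdac1 without replicate 2, and Rnf2 and Eed without replicate 3. Without FOG1 replicate 2 or without FOG1 replicate 3 only 1, Rnf2, was left (3.03%, against 8.85% or 8.67% and 7.72% or 7.69%). The adjusted p of the 33 genes ran from 0.135 for Rnf2 to 0.998 for Chd4, the main NuRD ATPase.

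The changes were small in both directions. The median log2 change over the 33 genes was 0.046, against -0.010 over all probe sets and 0.020 over the 8899 genes as bright. After quantile normalization these medians were 0.027, -0.0012 and 0.0070, and after median centring 0.071, 0.015 and 0.045. Positive values were found for 24 of the 33 (22 after quantile normalization and 29 after centring each array on its median), where 46.2% of all probe sets and 59.5% of those 8899 genes were positive. The most positive value was 0.33 (Rnf2) and the most negative -0.090 (Ezh1). The widest 95% intervals reached 0.48 upward (Rnf2, a 1.39-fold rise) and -0.23 downward (Ctbp2, a 1.18-fold fall), so larger changes than these lie outside the interval of every measured gene, each interval being taken alone. In a bulk sample, fewer cells that carry a transcript and less of it per cell cannot be told apart.

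**Figure D1:**
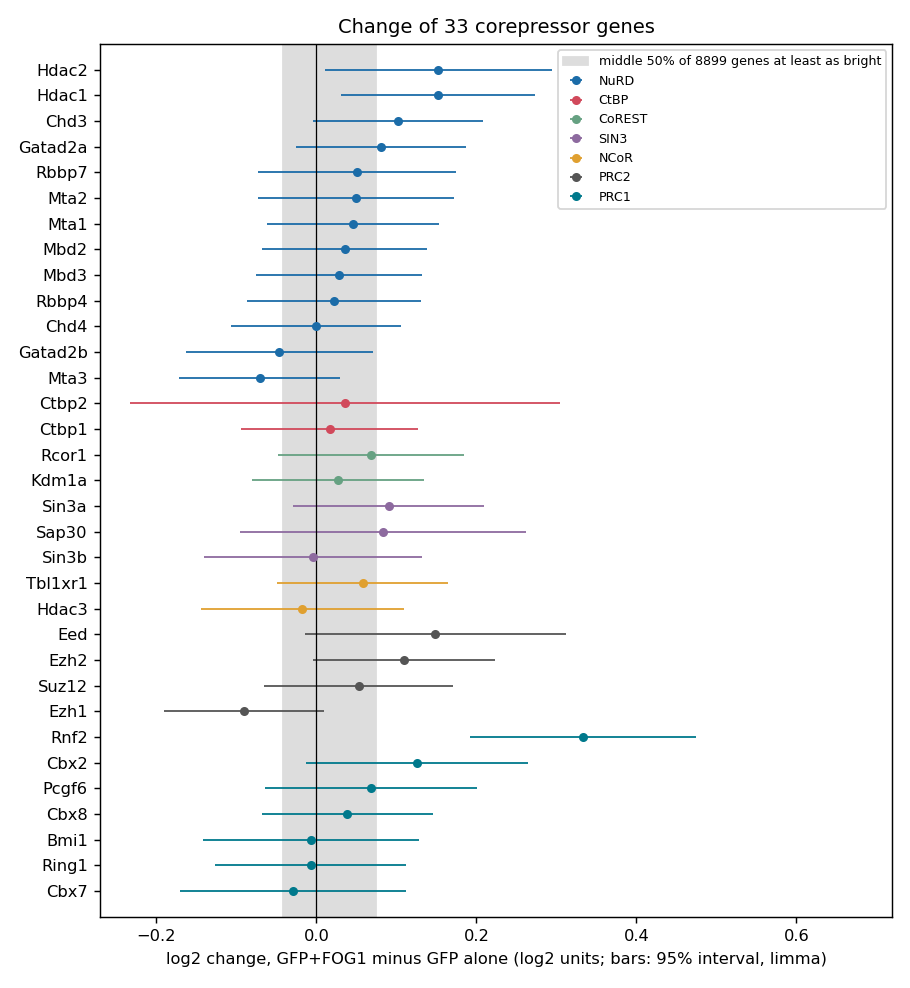
Log2 change (GFP+FOG1 minus GFP alone, log2 units) of each of the 33 genes, coloured by complex, with 95% intervals from limma (3 arrays in each group). The grey band is the middle 50% of the 8899 genes at least as bright as Cbx8, and Rnf2 at 0.33 is the gene farthest from 0.

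In 10 of the 33 genes (30.3%) the FOG1 arrays and the GFP-alone arrays did not overlap, against 19.6% of all probe sets and 27% of the 8899 genes as bright. With FOG1 8 were higher (Chd3, Hdac1, Hdac2, Gatad2a, Sin3a, Tbl1xr1, Ezh2 and Rnf2) and 2 lower (Mta3 and Ezh1). Of all probe sets 9.13% were apart and higher and 10.5% apart and lower, and of the 8899 genes 18.2% and 8.83%. The count of 10 was 8 after quantile normalization, with 7 genes shared, and 16 after median centring, which held all 10. As a share of the 33 genes these are 24.2% and 48.5%, against 19.0% and 21.2% of all probe sets and 26.9% and 34.4% of the 8899 genes. The share of corepressor genes thus lay close to that of the 8899 genes, which were not matched in level, on the deposited scale and after quantile normalization. It lay above that share after median centring.

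Rnf2, the main catalytic subunit of PRC1 and a RING-type ubiquitin ligase, had the largest log2 change of the 33. With GFP alone its log2 signal read 9.74, 9.65 and 9.61, and with FOG1 9.92, 10.03 and 10.06. All FOG1 values lay above all GFP-alone values, and the gap between the groups, 9.74 to 9.92, was wider than the range within either group. The log2 change was 0.33, or 1.26-fold (SE 0.059, 95% interval 0.19 to 0.48; limma, unadjusted p = 9.9e-04, adjusted p = 0.135). Across the alternatives it ran from 0.31 to 0.37 with an adjusted p of 0.062 at the lowest, when only 1-symbol probe sets were tested, and 0.395 at the highest, without FOG1 replicate 2. The value therefore kept its direction throughout and its side of the threshold.

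The 2 histone deacetylases of NuRD had the same log2 change, 0.15 each. Hdac1 read 11.29, 11.37 and 11.33 with GFP alone and 11.41, 11.51 and 11.52 with FOG1 (SE 0.050; limma adjusted p = 0.329). Hdac2 read 9.80, 9.78 and 9.83 with GFP alone and 9.86, 9.96 and 10.05 with FOG1 (SE 0.059; limma adjusted p = 0.377). In both genes the FOG1 arrays lay above the others, with FOG1 replicate 1 nearest to the GFP-alone values. The other Hdac1 probe set had a log2 change of 0.20 and overlapping groups. Hdac3, the deacetylase of NCoR, had a log2 change of -0.018, and its sign turned after median centring (0.0079).

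**Figure D2:**
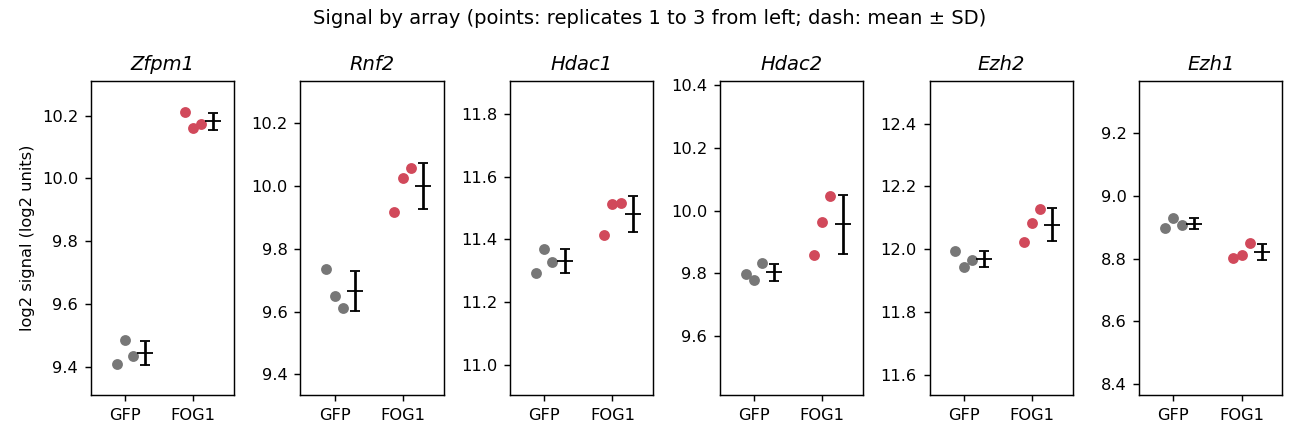
Log2 signal of Zfpm1, of the 3 corepressor genes with an unadjusted p under 0.05 and of the PRC2 methyltransferase genes Ezh2 and Ezh1, each panel spanning the same height of 1 log2 unit. Points are arrays, dashes with bars are group means ± SD (n = 3), and no panel shows overlap between GFP-alone and FOG1 arrays.

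The ATPases and scaffolds of NuRD had values in both directions, and none passed the threshold. Chd4 read 10.85, 10.93 and 10.88 with GFP alone and 10.89, 10.86 and 10.91 with FOG1, group means of 10.88 in both (95% interval of the change -0.11 to 0.11). Chd3, the alternative ATPase, read 9.23, 9.26 and 9.29 with GFP alone and 9.32, 9.37 and 9.39 with FOG1, a log2 change of 0.10 (limma adjusted p = 0.408). The FOG1 values of Chd3 were all higher, by a gap of about the size of the spacing within the groups, while those of Chd4 fell inside the GFP-alone range.

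Of the metastasis-associated scaffold genes, Mta1 read 10.27, 10.35 and 10.27 with GFP alone and 10.33, 10.34 and 10.35 with FOG1 (log2 change 0.046). Mta2 read 11.23, 11.31 and 11.23 against 11.26, 11.29 and 11.37 (0.049). Both overlapped. Mta3, which is known for B-cell expression in germinal centres, read 10.83, 10.87 and 10.83 with GFP alone and 10.79, 10.76 and 10.76 with FOG1. Of the 13 NuRD genes it was the only one whose FOG1 arrays all lay lower (log2 change -0.071, SE 0.042; limma adjusted p = 0.521), and its other, dimmer probe set had -0.094 with overlapping groups.

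The histone chaperone Rbbp4, a direct partner of the FOG1 N-terminus, read 11.69, 11.65 and 11.62 with GFP alone and 11.64, 11.68 and 11.71 with FOG1 (log2 change 0.022). Rbbp7, its close relative, read 10.79, 10.82 and 10.85 against 10.80, 10.90 and 10.93 (0.051). Neither separated the groups. The other Rbbp7 probe set pointed the other way, at -0.064, and the mean of both was -0.0063. Among the remaining NuRD genes Gatad2a, a zinc finger scaffold, read 10.47, 10.49 and 10.48 with GFP alone and 10.54, 10.53 and 10.61 with FOG1 (log2 change 0.081; limma adjusted p = 0.489). Its relative Gatad2b had -0.046, and the methyl-CpG-binding domain genes Mbd2 and Mbd3 had 0.035 and 0.028, all with overlapping groups.

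CtBP dimers recruit deacetylases and demethylases and bind FOG1 directly. Ctbp1 read 11.42, 11.36 and 11.34 with GFP alone and 11.37, 11.37 and 11.43 with FOG1, a log2 change of 0.017 (95% interval -0.094 to 0.13). Ctbp2 read 8.10, 8.32 and 8.37 with GFP alone and 8.50, 8.24 and 8.15 with FOG1, a log2 change of 0.036 (95% interval -0.23 to 0.30). The Ctbp2 arrays scattered more than those of the other 32 genes, with SDs of 0.145 and 0.180, its highest and its second-lowest value were both FOG1 arrays, and its sign turned when replicate 1 of the GFP-alone group (-0.047) or of the FOG1 group (-0.066) was left out.

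The genes of CoREST, which joins the demethylase Kdm1a to the scaffold Rcor1, had log2 changes of 0.027 and 0.069 with overlapping groups, and that of Kdm1a was -0.0027 after quantile normalization. In SIN3, the scaffold gene Sin3a read 9.69, 9.76 and 9.66 with GFP alone and 9.78, 9.77 and 9.84 with FOG1, apart by a small gap (log2 change 0.091; limma adjusted p = 0.490). Its groups overlapped after quantile normalization. Sin3b had -0.0042, with a sign that turned under 5 of 13 alternatives. Sap30, a SIN3 bridging subunit, had 0.083, and that value rested on FOG1 replicate 2, which read 9.18 where the other 5 arrays read 8.91 to 8.96: without it the change was 0.0044. In NCoR, Tbl1xr1, which exchanges corepressors for coactivators, read 10.10, 10.10 and 10.07 with GFP alone and 10.12, 10.13 and 10.20 with FOG1 (log2 change 0.058; limma adjusted p = 0.616), and its groups too overlapped after quantile normalization. Its other probe set had a log2 change of 0.018 and overlapping groups.

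**Figure D3:**
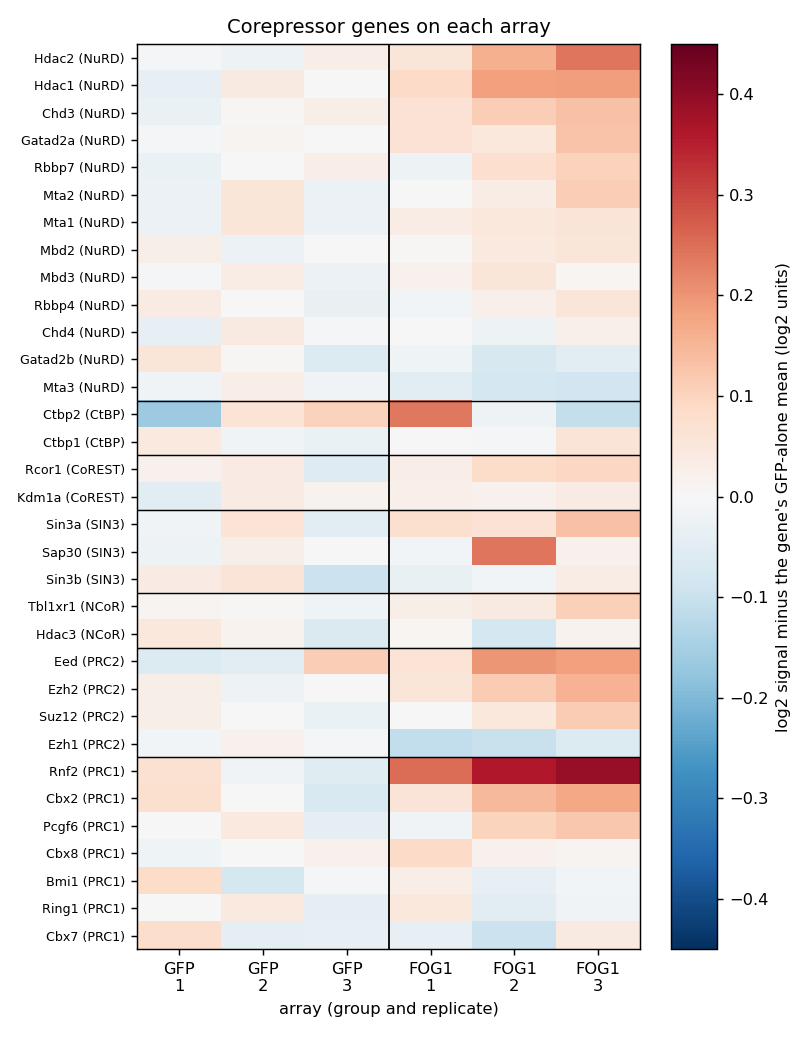
Log2 signal of each gene on each array minus the gene's mean over the 3 GFP-alone arrays (log2 units, red higher, blue lower), genes grouped by complex and ordered by change within it. The FOG1 arrays are darkest red for Rnf2. More genes lie above all 3 GFP-alone arrays on FOG1 replicate 3 (20) than on replicate 1 (11), as do more of all probe sets (31.9% and 23.5%).

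In PRC2 the alternative methyltransferases had changes of opposite sign. Ezh2, the form of dividing cells, read 12.00, 11.94 and 11.97 with GFP alone and 12.02, 12.08 and 12.13 with FOG1 (log2 change 0.11, SE 0.047; limma adjusted p = 0.410). Ezh1, the form associated with resting cells, read 8.90, 8.93 and 8.91 with GFP alone and 8.80, 8.81 and 8.85 with FOG1 (log2 change -0.090, SE 0.042; limma adjusted p = 0.432). Both separated the groups, although Ezh2 no longer did after quantile normalization. The scaffold Eed read 9.24, 9.25 and 9.41 with GFP alone and 9.36, 9.50 and 9.48 with FOG1 (log2 change 0.15; limma adjusted p = 0.430), overlapping through GFP-alone replicate 3. Without that array its change was 0.20. Suz12, which anchors the complex, had 0.053.

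Apart from Rnf2, the PRC1 genes lay closer together, between -0.030 and 0.13. Cbx2, a chromobox reader of the PRC2 mark, read 9.74, 9.67 and 9.60 with GFP alone and 9.73, 9.82 and 9.85 with FOG1 (log2 change 0.13; limma adjusted p = 0.431), with overlap by 1 array of each group. The chromobox genes Cbx7 and Cbx8 had -0.030 and 0.039. Ring1, which can replace Rnf2 as the ligase, had -0.0071 (95% interval -0.13 to 0.11). Bmi1, a PRC1 scaffold known from self-renewing cells, had -0.0066, and Pcgf6, the scaffold of a variant PRC1, had 0.068. The signs of Ring1, Bmi1 and Cbx7 turned under 3, 3 and 2 of 13 alternatives.

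Paralogues that can stand in for each other were compared directly, as the difference between the log2 changes of 2 genes, over 11 pairs. In 6 pairs the log ratio of the 2 genes separated the 3 FOG1 arrays from the 3 GFP-alone arrays. Each of these 6 holds at least 1 gene whose own groups were apart, so the pairs largely restate the values of those genes. The share of other gene pairs that separate in this way was not counted. The differences were 0.34 for Rnf2 over Ring1, 0.20 for Ezh2 over Ezh1, 0.13 for Gatad2a over Gatad2b, 0.12 for Mta1 over Mta3, 0.10 for Chd3 over Chd4 and 0.095 for Sin3a over Sin3b. Each had a two-sided exact permutation p of 0.10, the smallest that 3 arrays against 3 allow, and an adjusted p of 0.183 over the 11 pairs, so this test cannot place them past 0.05. After quantile normalization 5 of these pairs remained apart, without Sin3a and Sin3b. The pairs Hdac1 and Hdac2, Rbbp4 and Rbbp7, Mbd2 and Mbd3, Ctbp1 and Ctbp2, and Mta1 and Mta2 overlapped, with differences between -0.029 and 0.0067 and exact permutation p from 0.70 to 1.

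**Figure D4:**
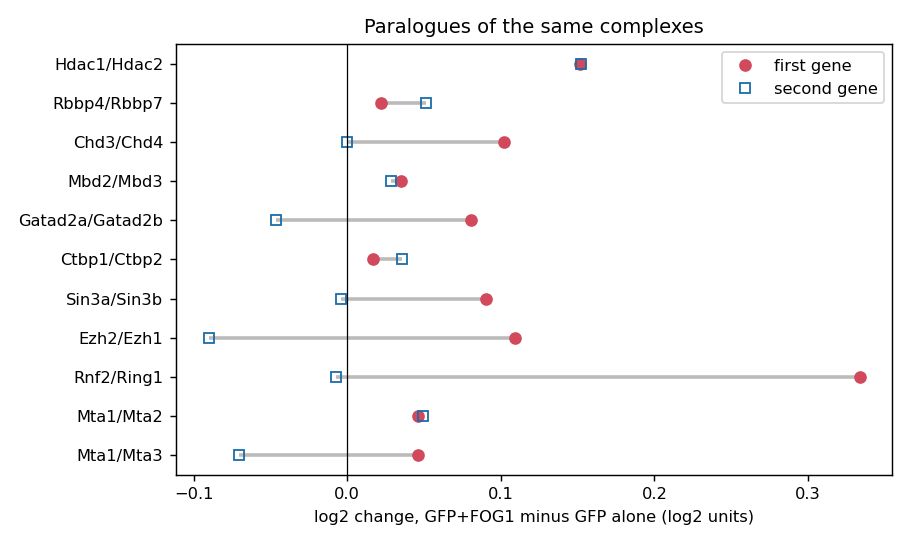
Log2 changes (GFP+FOG1 minus GFP alone, log2 units) of 11 paralogue pairs, the gene named first as a filled circle and the other as an open square, joined by a bar whose length is their difference. The bar is longest for Rnf2 and Ring1 (0.34), and in 6 pairs the log ratio separates the groups.

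Of the FOG1 arrays, replicate 1 was displaced least over the 33 genes, although not over the 2 CtBP or the 7 PRC1 genes, where it was displaced most. The median over the 33 genes of the log2 signal minus the GFP-alone mean was 0.023 on FOG1 replicate 1, 0.045 on replicate 2 and 0.057 on replicate 3, and between -0.018 and 0.012 on the GFP-alone arrays. Over the 8899 genes as bright the same medians were 0.014, 0.015 and 0.037 on the FOG1 arrays. Above all 3 GFP-alone arrays lay 11, 17 and 20 of the 33 genes on FOG1 replicates 1, 2 and 3, where 23.5%, 24.9% and 31.9% of all probe sets did. Below all 3 lay 2, 6 and 2 of the 33, a count not taken over all probe sets. Neither count was taken over the 8899 genes as bright, of which 18.2% were apart and higher, against 9.13% of all probe sets. Whether the counts of the 33 genes exceed those of the 8899 genes array by array was therefore not measured. Proliferation genes had values on the same side: the median over 19 of them was 0.064, 0.093 and 0.13 on these arrays, and their mean log2 signal was 11.06 to 11.08 with GFP alone and 11.14 to 11.19 with FOG1. For 18 of the 19 the log2 change was positive (median 0.098), and none passed the threshold. Their part in the values of Ezh2, Rnf2, Hdac1 and Hdac2 was not tested. Over 8 housekeeping genes the median log2 change was 0.0023.

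Further subunits of the same complexes gave a like picture. Of 54 measured genes none passed the threshold, 4 had an unadjusted p under 0.05 (limma) and all 4 of these were higher with FOG1, a share of 7.41% against the 12.5% of all probe sets. Positive log2 changes were found for 42 (77.8%, against 46.2% of all probe sets and 59.5% of the 8899 genes), with a median of 0.040. The groups did not overlap for 12 higher and 2 lower, or 25.9% against the 19.6% of all probe sets and 27% of the 8899 genes. Rcor2, a CoREST scaffold of the Rcor1 family, read 8.40, 8.44 and 8.42 with GFP alone and 8.59, 8.61 and 8.59 with FOG1. All FOG1 values lay above the GFP-alone values, and the log2 change was 0.18 (SE 0.040; limma adjusted p = 0.212). The others of the 4 were Sinhcaf, a SIN3 subunit, at 0.16, and the PRC1 genes Scmh1 and Phc1 at 0.14 and 0.13 (limma adjusted p = 0.311 to 0.347).

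By complex, positive values were found for 2 of 5 further NuRD genes, 5 of 5 CtBP-associated genes, 6 of 7 CoREST, 10 of 12 SIN3, 0 of 2 NCoR, 6 of 7 PRC2 and 13 of 16 PRC1 genes. The medians ran from -0.020 for NuRD to 0.075 for CoREST. Among the 33 genes themselves the medians were 0.046 for 13 NuRD genes, 0.026 for 2 CtBP, 0.048 for 2 CoREST, 0.083 for 3 SIN3, 0.020 for 2 NCoR, 0.081 for 4 PRC2 and 0.039 for 7 PRC1 genes, and no complex held a gene past the threshold.

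The promoters of Rnf2, Ezh2 and Ezh1 are shown, the polycomb genes whose groups did not overlap on the deposited scale. Eed and Cbx2 had larger log2 changes than Ezh2 and Ezh1, with overlapping groups. Polycomb and NuRD subunits are largely expressed from CpG-rich promoters, which the rule for choosing genes did not use. RefSeq windows (GRCm38.p6, 250 bases before to 50 after the transcript start) were found for 28 of the 34 genes, 34 windows in all, and Cbx2, Chd3, Hdac1, Hdac3, Mbd2 and Mta3 had no entry. The 300-base sequences of Rnf2, Ezh2 and Ezh1 read as follows, 5′ to 3′, with matches to the searched motifs in capitals.
Rnf2 (chr1:151500942-151501241, minus strand): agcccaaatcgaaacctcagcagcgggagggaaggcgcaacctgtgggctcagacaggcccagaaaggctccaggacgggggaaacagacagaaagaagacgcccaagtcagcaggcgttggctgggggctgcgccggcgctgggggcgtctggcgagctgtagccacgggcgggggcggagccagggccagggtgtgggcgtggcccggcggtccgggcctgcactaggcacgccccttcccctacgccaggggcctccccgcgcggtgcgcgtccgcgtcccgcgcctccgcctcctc
Ezh2 (chr6:47594981-47595280, minus strand): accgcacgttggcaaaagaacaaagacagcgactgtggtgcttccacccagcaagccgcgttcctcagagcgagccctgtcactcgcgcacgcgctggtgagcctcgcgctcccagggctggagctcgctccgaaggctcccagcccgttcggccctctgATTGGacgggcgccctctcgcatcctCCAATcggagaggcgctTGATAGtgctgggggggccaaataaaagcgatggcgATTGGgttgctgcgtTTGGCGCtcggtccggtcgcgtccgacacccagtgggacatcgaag
Ezh1 (chr11:101226414-101226713, minus strand): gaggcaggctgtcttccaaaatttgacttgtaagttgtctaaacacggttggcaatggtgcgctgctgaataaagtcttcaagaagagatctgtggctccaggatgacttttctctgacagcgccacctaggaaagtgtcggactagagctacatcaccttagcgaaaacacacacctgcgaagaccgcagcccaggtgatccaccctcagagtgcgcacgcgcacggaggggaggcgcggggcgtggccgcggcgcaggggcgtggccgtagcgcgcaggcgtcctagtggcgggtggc

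These windows hold 30, 31 and 23 CpG dinucleotides, against a median of 25 in the 34 corepressor windows and 7 in all 32851 windows of the table. The motifs searched on both strands were the GATA site (AGATAA or AGATAG or TGATAA or TGATAG), the E2F site (TTCCCGC or TTGGCGC or TTCGCGC or TTGCCGC) and the CCAAT box (CCAAT), and no letters of the Ezh2 matches belong to more than one motif. Ezh2 has 1 GATA, 1 E2F and 3 CCAAT matches, and the Rnf2 and Ezh1 windows have no match. Over the 34 windows, 5 (14.7%) hold a GATA match, 7 (20.6%) an E2F match and 19 (55.9%) a CCAAT match, where 29.8%, 9.57% and 37.4% of all windows do. The 34 windows had a median GC content of 64.2%, against 52.7% in all windows. The shares were not matched for base content, so they do not show a trait of these genes apart from it. A match is a run of letters and not a shown binding site, and the arrays measured RNA and not occupancy.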

How the data were processed

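Total RNA of 6 samples (100 ng each) was amplified and hybridised to 1 array per sample, per the labels' protocols. The authors deposited log2 signals for 34760 probe sets, made with the affy package per the submitters' processing notes. The sources used here do not give the background correction, normalization or probe summary, and the log2 scale was read from the values (3.12 to 14.07). A change seen here is thus measured against the rest of its array. The number of arrays limits the precision.

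Symbols came from the platform annotation (21640 probe sets with 1 symbol, 1321 with several, 11799 with none) and were the same for 33 of 33 genes in RefSeq. The fit used lmFit and eBayes of limma 3.58.1 (R 4.3.3) with no block. It was tested on simulated data, with Benjamini-Hochberg adjustment over all probe sets and a threshold of 0.05. The simulated noise was independent between probe sets, so effects shared across an array were not covered by that test. Paralogue differences used exact permutation tests, two-sided, on within-array log2 ratios. The rule for named genes took Zfpm1 and the 33 genes, with array values for those at an unadjusted p under 0.05 or with groups apart and for the catalytic subunits and known FOG1 partners. Values of Eed, Cbx2 and Sap30, and the pairs, were added after the data were seen. The genes and lists were chosen with earlier results of these data known. Same-numbered arrays were not taken to pair (correlations of their deviations -0.068, 0.0084 and -0.040). Alternatives were other scalings, filters, variance models, weights, the replicate block, averaging the probe sets of a gene and leaving out each array. Figures used matplotlib 3.10.9.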

Additional observations from a re-analysis of the deposited data

How the results depend on the processing

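The count of corepressor genes past the threshold was 0 under all 14 alternatives. No pseudocount or background correction was run, because the deposited values are already log2 signals, and scanner files were not used here. At an unadjusted p under 0.05 the count was 3 (9.09%, against 12.5% of all probe sets and 13.9% of the genes as bright). It was also 3 after quantile normalization (9.09% against 12.0% and 13.6%), with Ezh1 in place of Hdac2. After median centring it was 9 (27.3% against 13.4% and 19.0%), and with a variance trend 8 (24.2% against 13.1% and 18.1%). When dim probe sets were dropped it was 6 (18.2% against 17.1% and 16.8%). It was 5 with 1-symbol probe sets only (15.2% against 14.1% and 16.7%) or array weights (15.2% against 14.2% and 15.9%). Without 1 array it was 1 to 6 (3.03% to 18.2%, against 8.67% to 15.5% and 7.69% to 18.2%). The median log2 change of 0.046 was 0.027 after quantile normalization, 0.071 after median centring and 0.034 to 0.055 without 1 array. The 78 probe sets past the threshold were 17 to 38 without 1 array and 9 with the replicate block, under which Zfpm1 (0.74) had an adjusted p of 0.097. In that paired fit 2 corepressor genes, Hdac1 and Rnf2, had an unadjusted p under 0.05 (limma). That share was 6.06%, against 11.1% of all probe sets and 9.65% of the genes as bright. By deviation, 0 of 6 arrays were most like the array of their own number. The count of genes with groups apart, 10, was 16 after median centring. As a share this was 48.5%, against 21.2% of all probe sets and 34.4% of the genes as bright. This count and its scalings were chosen for comparison after seeing the data. Median centring adds the same amount to every log2 change: that of Rnf2 went from 0.33 to 0.36 and that of Ezh1 from -0.090 to -0.065. Some other settings hold fewer arrays or probe sets. The cause of the moves in these counts was not tested.

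Signs turned for 10 of the 33 genes, and 23 kept theirs. After quantile normalization Ctbp1 was at -0.0026 and Kdm1a at -0.0027. After median centring Chd4 was at 0.025, Sin3b at 0.021, Hdac3 at 0.0079, Ring1 at 0.018 and Bmi1 at 0.019. With array weights Sin3b was at 0.0039, and with the mean over probe sets Rbbp7 was at -0.0063. Without 1 array the ranges were -0.019 to 0.020 for Chd4, -0.053 to 0.025 for Sin3b, -0.049 to 0.012 for Hdac3, -0.034 to 0.016 for Ring1, -0.047 to 0.035 for Bmi1, -0.065 to 0.0094 for Cbx7, -0.0032 to 0.039 for Ctbp1 and -0.066 to 0.11 for Ctbp2. No detection call was used, and dim probe sets can understate a change.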
